A study of Mus musculus with 3 samples.

Results

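Transcripts bound to tagged ribosomes were compared between the occluded left hemisphere of mice with middle cerebral artery occlusion (MCAO) and the right hemisphere of mice without it. The libraries compared, 2 of the 3 in the series, were chosen by their labels, and the gene lists described were chosen with earlier results of these data known. The occluded group had MCAO for 1 h and the control group had none, and both were killed after 3 days. A pool of 3 animals made up every library, with 2 technical replicates, and RNA from 2 rounds of pull-down was combined. The third library, the right hemisphere of the occluded animals (contralateral), is given beside the others as a reference. All 3 were RiboTag pull-downs from the middle section of a hemisphere, in which an epitope-tagged ribosomal protein is precipitated with the transcripts it is translating. The series title speaks of astrocytes, but the labels name no driver line, strain or age.

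With 1 pooled library per group no difference has a replicate check, so only sizes are described. No left hemisphere of animals without MCAO is in these labels, so side and occlusion cannot be told apart. In bulk RNA of this kind, fewer cells of a type and less RNA per cell cannot be told apart either.

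The middle cerebral artery feeds the striatum and the lateral cortex. After its occlusion, astrocytes around the infarct become reactive: they enlarge, build intermediate filaments and some divide. Microglia and blood-derived phagocytes gather and clear dead tissue, and neurons of the core are lost. RiboTag marks ribosomes only in cells that express the tagged protein, although RNA of other cells can be carried along in a pull-down.

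Markers of several cell types were present in the control library. Summed over a list, the normalised read counts came to 1010255 for 40 astrocyte identity genes, 484325 for 20 neuron markers, 145319 for 18 oligodendrocyte markers and 13852 for 20 microglia markers. Transcripts of cells other than astrocytes were thus present in the pull-down. The sums of the astrocyte list were alike in the libraries, at 1062840 in the contralateral and 1029906 in the occluded hemisphere, and none of its 40 members differed 2-fold. Sequencing depth was 31833456 reads in the control, 33886604 in the contralateral and 25930258 in the occluded library. Of 8 sex-linked genes none differed 2-fold, and the Y-linked helicase gene Ddx3y had 1679, 1397 and 1775 normalised counts.

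Throughout, values are normalised read counts in the order control, contralateral and occluded. They are not divided by transcript length, so levels are not compared between genes. Differences are occluded minus control on the log2(count + 5) scale, which understates differences of low genes. Ratios are printed without the pseudocount, with a 95% Clopper-Pearson interval that covers counting error only. Of 16610 genes, the 14906 whose mean over the 3 libraries reached 20 were used. Gbx1, a homeobox gene, lay just above that limit with 23.2, 20.4 and 16.5, and the angiotensin receptor gene Agtr1a lay just below it with 18.4, 20.4 and 21.2. The mean includes the occluded library, so a gene low in both right hemispheres passes only if its occluded value is high. Among genes named below this holds for Tgm1, H19, Hmga2, Hal, Cd5l, Plaur, Clcf1, Bcl3 and Tlr1. It also holds for Ccl2, Ccl3, Cxcl10, H2-Q7, C5ar1, Cd72, Fcgr4, Ch25h and Ncf4. Counting such genes as higher was thus set by the filter.

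In the occluded hemisphere 614 of the 14906 genes (4.12%) exceeded the control 2-fold or more, and 187 (1.25%) were at least 2-fold lower. These shares are the background for the list counts of the occluded library below. The other 14105 genes, 94.6% of all, lay within 2-fold, and the median difference was -0.002704. The higher side had the larger sizes: 202 genes were at least 4-fold higher and 8 at least 4-fold lower. At 8-fold there were 69 higher and none lower, and at 16-fold 16 higher and none lower. Differences ran from -2.91 for Cd4 to 7.89 for Tgm1, a transglutaminase gene that cross-links proteins. Against the same control, the contralateral library had more genes at least 2-fold higher, 771 (5.17%), and fewer at least 2-fold lower, 54 (0.362%). The mean that sets the filter includes the contralateral library too, so genes high only there also pass. With the mean taken over the control and occluded libraries alone, 14433 genes passed. Genes listed at 1 numbered 665 in the control, 47 in the contralateral and 583 in the occluded library. The part of the filter and of this minimum in the 771 was not tested.

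**Figure D1:**
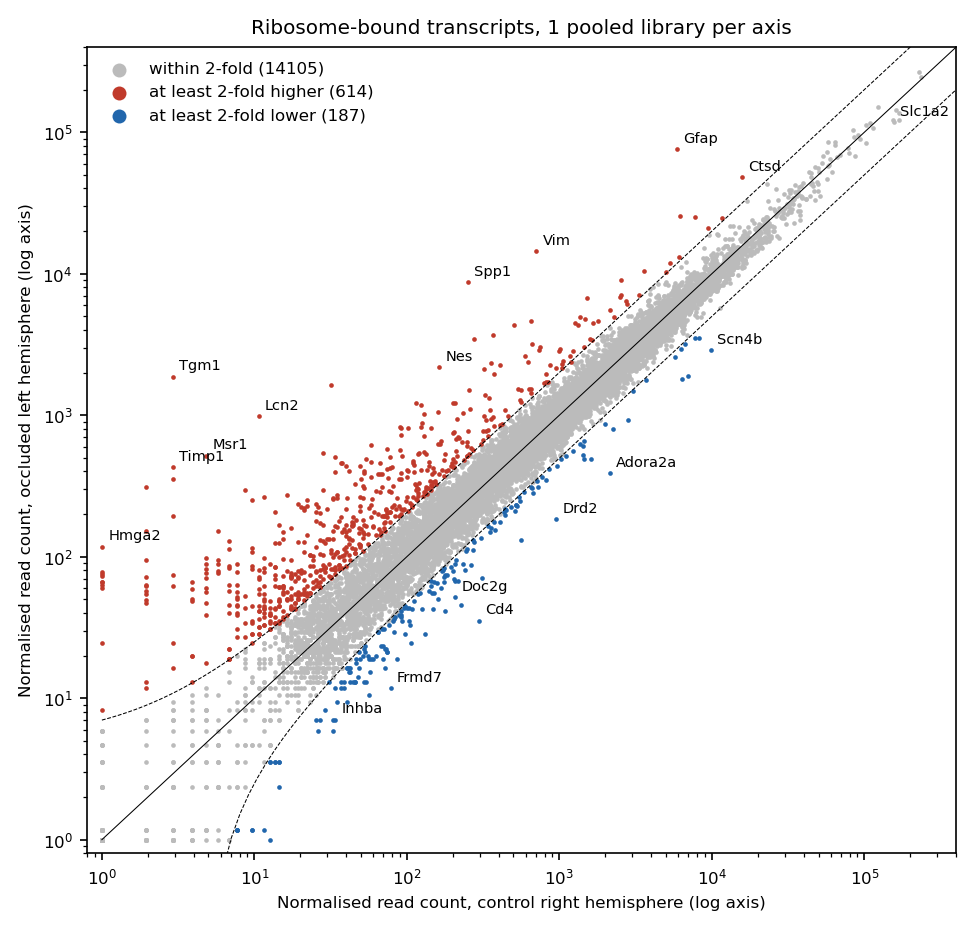
Normalised read count of each of the 14906 genes in the control right hemisphere (x, log axis) and the occluded left hemisphere (y, log axis), 1 pooled library per axis; dashed lines mark a 2-fold difference on the log2(count + 5) scale. The 614 genes at least 2-fold higher (red) reach much farther from the diagonal than the 187 lower genes (blue).

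Genes of low level made up most of both groups. Among the 3727 genes of lowest mean count, from 20.04 to 190.5, 11.5% were 2-fold or more higher and 3.38% at least 2-fold lower. Among the 3727 genes of highest mean count, from 1915 upwards, the shares were 0.885% and 0.268%. Counting error is relatively larger for low counts: with the whole counting interval required past 2-fold, 392 genes were higher and 55 lower.

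**Figure D2:**
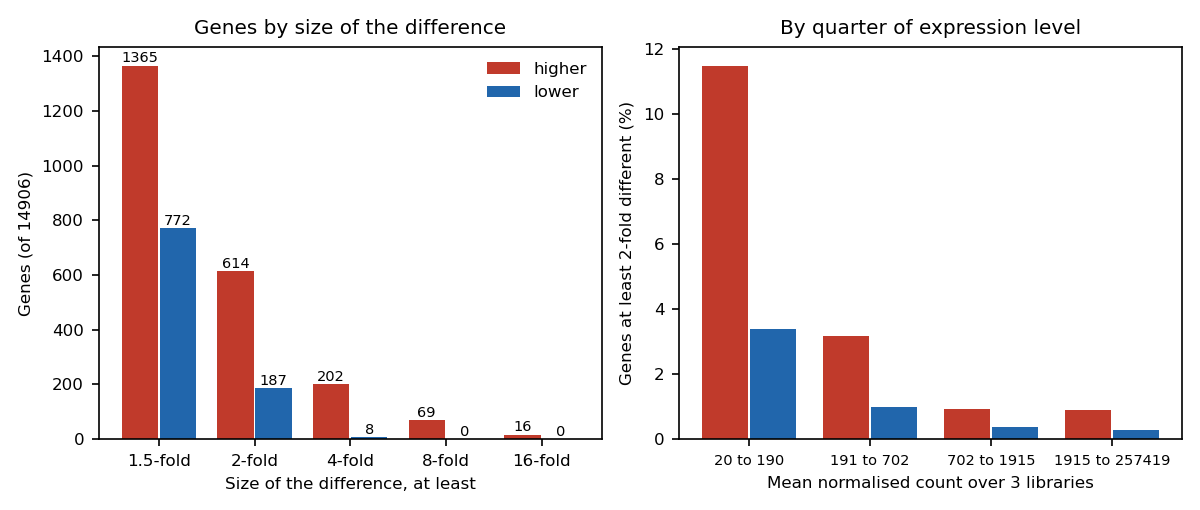
Left, number of genes at least 1.5-, 2-, 4-, 8- and 16-fold higher (red) or lower (blue) in the occluded than in the control hemisphere, of 14906; right, percentage of genes at least 2-fold different in 4 equal classes of mean normalised count. Lower genes number 772 at 1.5-fold and 8 at 4-fold, and the share of higher genes drops from 11.5% to 0.885% from the lowest to the highest class.

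The 614 higher genes held 0.56% of the summed counts of the control, 0.796% of the contralateral and 1.97% of the occluded library. Their summed gain was 427746 normalised counts. Gfap, encoding the intermediate filament of astrocytes (chromosome 11, 102887336 to 102897200), had 5903, 12202 and 76049 and alone made 16.4% of that gain. The 12 genes with the largest gains among the higher ones made 49.8%. The 187 lower genes held 0.376%, 0.318% and 0.149% of all counts, and 10 of them made 56.1% of the summed loss of 70300. Few transcripts thus made up much of the summed difference in either direction.

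Several of the largest gains in counts were moderate as ratios. Apoe, encoding a lipid carrier of astrocytes, had 229554, 277945 and 264758, a ratio of 1.15 (1.15 to 1.16). Ctsd, the lysosomal protease cathepsin D (chromosome 7, 142375910 to 142387827), had 15654, 16040 and 48035, a ratio of 3.07 (3.01 to 3.13). Trf, encoding the iron carrier transferrin (chromosome 9, 103208876 to 103230286), had 7713, 9189 and 25179, a ratio of 3.26 (3.18 to 3.35). For Ctsd and Trf the occluded library stood far above both right hemispheres, whereas for Apoe it lay between them. The chaperone gene Clu had 64564, 78000 and 84817.

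The largest losses in counts were all within 2-fold. Sparcl1, encoding a matrix protein secreted by astrocytes, had 169490, 187040 and 122199, and the glutamate transporter gene Slc1a2 had 156489, 125890 and 117197. Lrp1, encoding a lipoprotein receptor, had 168402, 90969 and 136623, so that its lowest library was the contralateral one. The actin regulator gene Cyfip2 had 37754, 26451 and 23856, and there both libraries of the occluded animals were below the control.

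**Figure D3:**
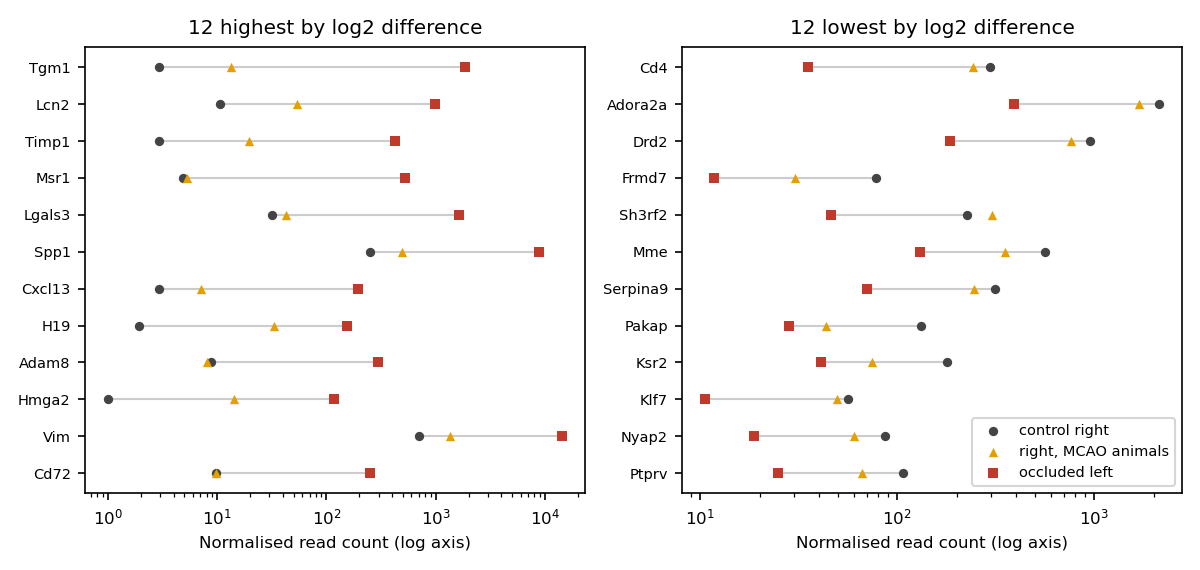
Normalised read count (log axis) of the 12 genes with the highest and the 12 with the lowest log2 difference (predicted genes and near-identical families left out), in the control right hemisphere (dark circle), the right hemisphere of the MCAO animals (orange triangle) and the occluded left hemisphere (red square), 1 pooled library each. For Tgm1 the symbols sit at 2.91, 13.3 and 1870, and for Cd4 at 297, 241 and 35.3.

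Cytoskeletal genes were among the largest differences. Of 15 intermediate filament genes 4 were 2-fold or more higher and none lower. Vim, encoding vimentin, had 707, 1351 and 14359, and the progenitor filament gene Nes had 163, 232 and 2182. The muscle filament gene Des, also a pericyte marker, had 17.4, 20.4 and 42.3. Synm, encoding a filament partner of vimentin, had 2537, 2050 and 2338, a difference of -0.12, and the neuronal filament gene Ina had 3231, 3015 and 2965. The list median was 0.34, so the large differences belonged to a few filaments.

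Of 45 actin and adhesion genes 15 were 2-fold or more higher and none lower, with a median of 0.51. S100a11, encoding a calcium-binding protein, had 28.1, 49.7 and 538, a ratio of 19.1 (13.1 to 28.9). Capg, which caps actin filaments, had 37.8, 87.0 and 456, and Flnc, a filamin that cross-links actin, had 39.7, 55.9 and 436. The annexin gene Anxa3 had 28.1, 97.6 and 296. For S100a11, Capg, Flnc and Anxa3 the contralateral value lay above the control and well below the occluded value. The tropomyosin gene Tpm1 had 3417, 3623 and 3428, with no difference to 2 decimals. Among 20 microtubule genes only the tubulin gene Tubb6 was at least 2-fold higher (4.12% of all genes). Tubb6 had 129, 140 and 714, a ratio of 5.54 (4.59 to 6.74).

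Matrix and adhesion receptors showed the same split between a few large differences and many small ones. Of 24 integrins and matrix receptors 7 were 2-fold or more higher, with a median of 0.54. Itgb2, the beta chain of leukocyte integrins, had 126, 173 and 883, and Cd44, the hyaluronan receptor, had 130, 130 and 1016. The tetraspanin gene Cd9 had 1362, 1732 and 4957, a ratio of 3.64 (3.43 to 3.87). Of 35 matrix genes 6 were 2-fold or more higher, with a median of 0.15. Tgfbi, a matrix protein induced by TGF-beta, had 205, 186 and 1226, and Thbs1, encoding thrombospondin, had 73.6, 64.8 and 202. The collagen gene Col1a2 had 476, 576 and 475.

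In the plasminogen and coagulation list 10 of 24 genes were 2-fold or more higher and none lower. St14, encoding the membrane protease matriptase (chromosome 9, 31088590 to 31131811), had 274, 270 and 3445, a ratio of 12.6 (11.1 to 14.3). Plaur, the receptor of urokinase, had 6.78, 10.6 and 113. St14 was no higher in the contralateral than in the control library. Of 23 metalloproteases and inhibitors 4 were 2-fold or more higher. Mmp19 had 34.9, 28.4 and 261, a ratio of 7.49 (5.25 to 11). Mmp9, a gelatinase often studied in stroke, had 59.1, 33.7 and 52.9.

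A further group of the highest genes had few or no reads in the control. H19, a noncoding RNA of fetal tissue (chromosome 7, 142575530 to 142578146), had 1.94, 32.8 and 153. The control value stood for 2 reads, and the ratio of 78.9 had an interval from 21.4 to 659. Hmga2, a chromatin protein gene of embryonic cells (chromosome 10, 120361268 to 120476469), stood at the listed minimum of 1 in the control, with 14.2 and 118 in the other libraries. Against a floor of 3 reads in the control, Hmga2 was at least 40.5-fold higher. Both genes were also above the control in the contralateral library. Hal, encoding the histidine-degrading enzyme, was listed at 1 and had 7.10 and 77.6, at least 26.7-fold higher by the same floor. Cd5l, a secreted macrophage protein gene, was listed at 1 and had 7.99 and 75.3, at least 25.9-fold higher.

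Signalling genes differed by class. Of 43 cytokine and growth factor ligand genes 3 were 2-fold or more higher (4.12% of all genes) and 2 at least 2-fold lower (1.25%). Their median was 0.13. With a mean of at least 100 the higher ligand genes numbered 1, and with no filter 9. A changed filter also changes how many members a list holds, here and below, so such counts are not shares of the full list. Clcf1, an interleukin 6 family cytokine gene (chromosome 19, 4214238 to 4223505), had 11.6, 9.76 and 262, a ratio of 22.6 (12.7 to 44.3). Cntf, a neurotrophic cytokine of the same family, had 51.3, 74.5 and 135. Inhba, encoding an activin subunit, had 33.9, 26.6 and 7.06, 4.8-fold lower (2.0 to 14.0), and the trophic factor gene Gdnf had 38.7, 30.2 and 11.8, 3.29-fold lower (1.62 to 7.39). Both intervals reached below 2-fold, that of Inhba only to 1.999.

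Of 56 receptor genes 11 were 2-fold or more higher and none lower. Osmr, the oncostatin M receptor, had 34.9, 48.8 and 272, and Tnfrsf12a, the receptor of the cytokine TWEAK, had 73.6, 79.0 and 415. Il21r and Csf2rb, cytokine receptors of immune cells, had 32.9, 45.2 and 152, and 49.4, 55.9 and 212. Fgfr3, a growth factor receptor of astrocytes, had 9588, 12025 and 9764.

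The JAK-STAT list had 3 of 27 genes at least 2-fold higher and 1 lower, with a median of -0.10. Ptpn6, a phosphatase of blood cells that restrains the pathway, had 93.0, 136 and 513, and the feedback inhibitor gene Socs3 had 77.5, 81.6 and 422. Stat3, the transcription factor of the pathway, had 1646, 2140 and 3382, a ratio of 2.05 (1.93 to 2.18). Socs4 had 81.4, 59.4 and 35.3, 2.31-fold lower (1.5 to 3.62), and the kinase gene Jak1 had 5214, 4881 and 5199. Of 69 transcription factor genes of injury and stress 8 were 2-fold or more higher and 1 lower, and with a mean of at least 100 there were 5 higher. Atf3 had 29.1, 15.1 and 126, and Cebpd had 111, 73.6 and 441, and both were lowest in the contralateral library. Runx1 and Spi1, factors of blood and myeloid cells, had 20.3, 28.4 and 76.5, and 80.4, 79.0 and 225.

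Of 39 innate sensor and NF-kB genes 14 were 2-fold or more higher and none lower, with a median of 0.51. Bcl3, a nuclear partner of NF-kB (chromosome 7, 19808462 to 19822824), had 5.81, 11.5 and 152, a ratio of 26.1 (11.7 to 72.5). Tlr1, a sensor of bacterial lipoproteins, had 4.84, 11.5 and 56.5, and Pycard, the inflammasome adaptor, had 28.1, 46.1 and 168. The feedback inhibitor gene Tnfaip3 had 189, 146 and 188. With a mean of at least 100 required, which left fewer members of the list, 3 were 2-fold or more higher and the median was 0.18.

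Most chemokine genes with large differences had few reads in the control. Over 15 such genes past the filter the median control count was 22.3, while the sum, set by a few abundant members, was 23768, 24416 and 21323, lowest in the occluded library. Of the 15 genes 9 were 2-fold or more higher and none lower, with a median of 1.51. Ccl2, which attracts monocytes, had 1.94 in the control, was listed at 1 in the contralateral and had 62.3 in the occluded library. The control value of Ccl2 stood for 2 reads, and the ratio of 32.2 had an interval from 8.48 to 273. Ccl3 stood at the minimum of 1 in the control and had 7.10 and 65.9, at least 22.7-fold higher by the 3-read floor. Both Ccl2 and Ccl3 passed the filter only through the occluded library, so counting them as higher was set by the filter. With a mean of at least 100 required, no chemokine gene was at least 2-fold higher and the median was 0.06.

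All 40 interferon-stimulated genes past the filter lay above 0, and 21 of them were 2-fold or more higher, with a median of 1.07. Isg15, a ubiquitin-like protein gene, had 9.69, 42.6 and 107, and Cxcl10, a chemokine that attracts T cells, had 5.81, 10.6 and 95.3. Gbp3 and Ifit1, an antiviral GTPase and an RNA-binding protein, had 120, 115 and 539, and 39.7, 58.6 and 168. The smallest difference of the list was 0.38, for the RNA sensor gene Ifih1. Isg15 was above the control in the contralateral library as well, while Gbp3 was not. With a mean of at least 100, 9 members were 2-fold or more higher and the median was 0.88.

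Interferon acts through a promoter element called ISRE, and the following stretches before the gene start show it in the 4 list members with the largest differences among those that hold it there. They are from RefSeq, build GRCm38.p6, written 5′ to 3′ on the gene's strand, and the capitals mark matches to GAAA, any 2 bases and GAAA again, on either strand. Gbp3 and Ifit1 carry the element in reverse orientation, and overlapping matches run together. The starts are those of the RefSeq promoter table, and the Gbp3 stretch partly overlaps the span RefSeq gives the gene. The positions are chr5:92349063-92349132 (minus strand) for Cxcl10 and chr4:156200845-156200914 (minus) for Isg15. Those of Gbp3 and Ifit1 are chr3:142559975-142560043 (plus) and chr19:34640774-34640843 (plus).
Cxcl10: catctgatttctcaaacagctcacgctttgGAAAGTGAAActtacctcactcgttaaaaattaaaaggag
Isg15: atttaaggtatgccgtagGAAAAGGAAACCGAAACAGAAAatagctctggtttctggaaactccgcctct
Gbp3: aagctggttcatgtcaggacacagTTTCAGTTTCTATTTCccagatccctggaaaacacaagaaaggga
Ifit1: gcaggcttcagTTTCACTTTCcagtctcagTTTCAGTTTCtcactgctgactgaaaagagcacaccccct

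Of the 40 interferon-stimulated genes 32 had a promoter entry (250 bases before to 50 after the start), and 16 of these (50%) held the ISRE letters. Counting the bases before the start only, the share was 40.6%. Of all 27025 RefSeq promoters 3.49% held them in the whole window, and their share before the start only was not counted. For the 614 higher and the 187 lower genes such shares are void, since only 73.9% and 75.9% had a promoter entry. A match to these letters is a description and no evidence that a factor was bound.

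Antigen presentation and complement genes were higher in part. Of 24 MHC and antigen presentation genes 6 were 2-fold or more higher, with a median of 0.78; with a mean of at least 100 there were 2. The co-stimulatory receptor gene Cd86 had 17.4, 26.6 and 94.1, and Psmb8, an immunoproteasome subunit, had 115, 99.4 and 294. H2-Q7 had 7.75, 24.8 and 77.6, and as a member of a near-identical family its single value is uncertain. Of 18 complement genes 8 were 2-fold or more higher, with a median of 0.85, which was 1.63 with a mean of at least 100. C3ar1 and C5ar1, receptors of complement fragments, had 33.9, 37.3 and 505, and 3.87, 12.4 and 65.9. The complement regulator genes Cfp and Cd55 had 41.6, 24 and 41.2, and 91.0, 122 and 82.3.

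Markers of phagocytes had the highest median difference of the cell type lists with 10 or more genes past the filter. Of 20 macrophage and phagocyte markers past the filter 18 were 2-fold or more higher (4.12% of all genes), with a median of 2.34. Members such as Fcgr4, Cd72 and Msr1, the highest of the list, passed the filter only through the occluded library, where they were high. The count of 18, the median and its rank were thus in part set by the filter. With a mean of at least 100, which left fewer members, 11 were 2-fold or more higher. The summed level of the 20 markers was 939, 1221 and 7223. Of 20 microglia markers 14 were 2-fold or more higher, with a median of 1.44 and a sum of 13852, 14248 and 38554. Tyrobp, a signalling adaptor of myeloid receptors, had 92.0, 204 and 729, and the complement gene C1qb had 355, 492 and 2325. P2ry12, a purine receptor of resting microglia, had 405, 382 and 418. Of the 28 phagocyte genes listed, 23 had a row in the table. The microglia sums of the right hemispheres were near each other, while the phagocyte sum was higher in the contralateral (1221) than in the control library (939). Both marker sums were far higher in the occluded library. Their part in the differences of the cytoskeletal, protease, immune and lysosomal lists was not tested.

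Cd72, an inhibitory receptor of immune cells, had 9.69, 9.76 and 253 normalised counts. Fcgr4, an antibody receptor, stood at the minimum of 1 in the control and had 4.44 and 60.0, and Pirb, another inhibitory receptor, had 11.6, 24 and 62.3; Fcgr4 and Pirb were chosen for the sequences that follow. PU.1, the product of Spi1, binds promoters of myeloid genes. These 3 stretches show the letters GAGGAANT on either strand in capitals, for the phagocyte markers with the largest differences among those holding them before the start. Their positions are chr4:43454638-43454705 (minus) for Cd72, chr1:171018872-171018925 (plus) for Fcgr4 and chr7:3720434-3720501 (minus) for Pirb. The Cd72 stretch lies inside the span RefSeq gives the gene, since the promoter table uses a start farther downstream.
Cd72: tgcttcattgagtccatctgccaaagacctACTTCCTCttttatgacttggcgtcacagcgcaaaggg
Fcgr4: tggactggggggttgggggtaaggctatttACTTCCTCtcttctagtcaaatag
Pirb: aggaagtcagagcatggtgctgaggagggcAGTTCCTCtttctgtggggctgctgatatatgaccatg

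Of 18 phagocyte markers with a promoter entry 5 (27.8%) held these letters, against 7.59% of all RefSeq promoters. Before the start only, the share of the 18 was 16.7%, and for all promoters that part was not counted.

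Of 26 neutrophil and lymphocyte markers 4 had a row in the table and 3 were past the filter, all at least 2-fold higher. Ptprc, the pan-leukocyte gene CD45, had 32.9, 76.3 and 260, Cd52, another leukocyte surface gene, had 26.1, 47.9 and 226, and Csf3r, the receptor for the neutrophil growth factor, had 81.4, 96.7 and 314. Microglia also express Ptprc, as background, so these genes do not single out one cell type.

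Lysosomal and lipid genes were higher in part. Of 38 lysosome genes 13 were 2-fold or more higher and none lower, with a median of 0.73 and a sum of 228084, 239778 and 325680. Ctse, cathepsin E, had 16.5, 12.4 and 273, and Ctsc, which activates granule proteases, had 256, 396 and 1516. The phagocyte lysosome genes Cd68 and Gpnmb had 92.0, 147 and 818, and 58.1, 63.9 and 471. Psap, encoding a cofactor of lipid breakdown, had 68715, 79065 and 68445. Of 29 genes of lipid export, storage and uptake 6 were 2-fold or more higher. Ch25h, which makes 25-hydroxycholesterol (chromosome 19, 34473783 to 34475148), had 13.6, 6.21 and 207, a ratio of 15.3 (8.86 to 28.5). Apod, a lipid carrier, had 2512, 5866 and 6824, and there the contralateral value was close to the occluded one.

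Genes of oxidant production and lipid mediators included clear differences. Of 43 iron, heme and oxidant defence genes 11 were 2-fold or more higher. Ncf4, Ncf1 and Cybb, subunits of the phagocyte oxidase, had 7.75, 3.55 and 89.4, 129, 142 and 552, and 52.3, 34.6 and 305. None of these oxidase genes stood far above the control in the contralateral library. Catalase, encoded by Cat, had 2986, 2973 and 2963. Of 25 prostaglandin and sphingolipid genes 5 were 2-fold or more higher. Tbxas1, thromboxane synthase, had 21.3, 62.1 and 220, and the sphingosine 1-phosphate receptor gene S1pr3 had 218, 190 and 699.

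**Figure D4:**
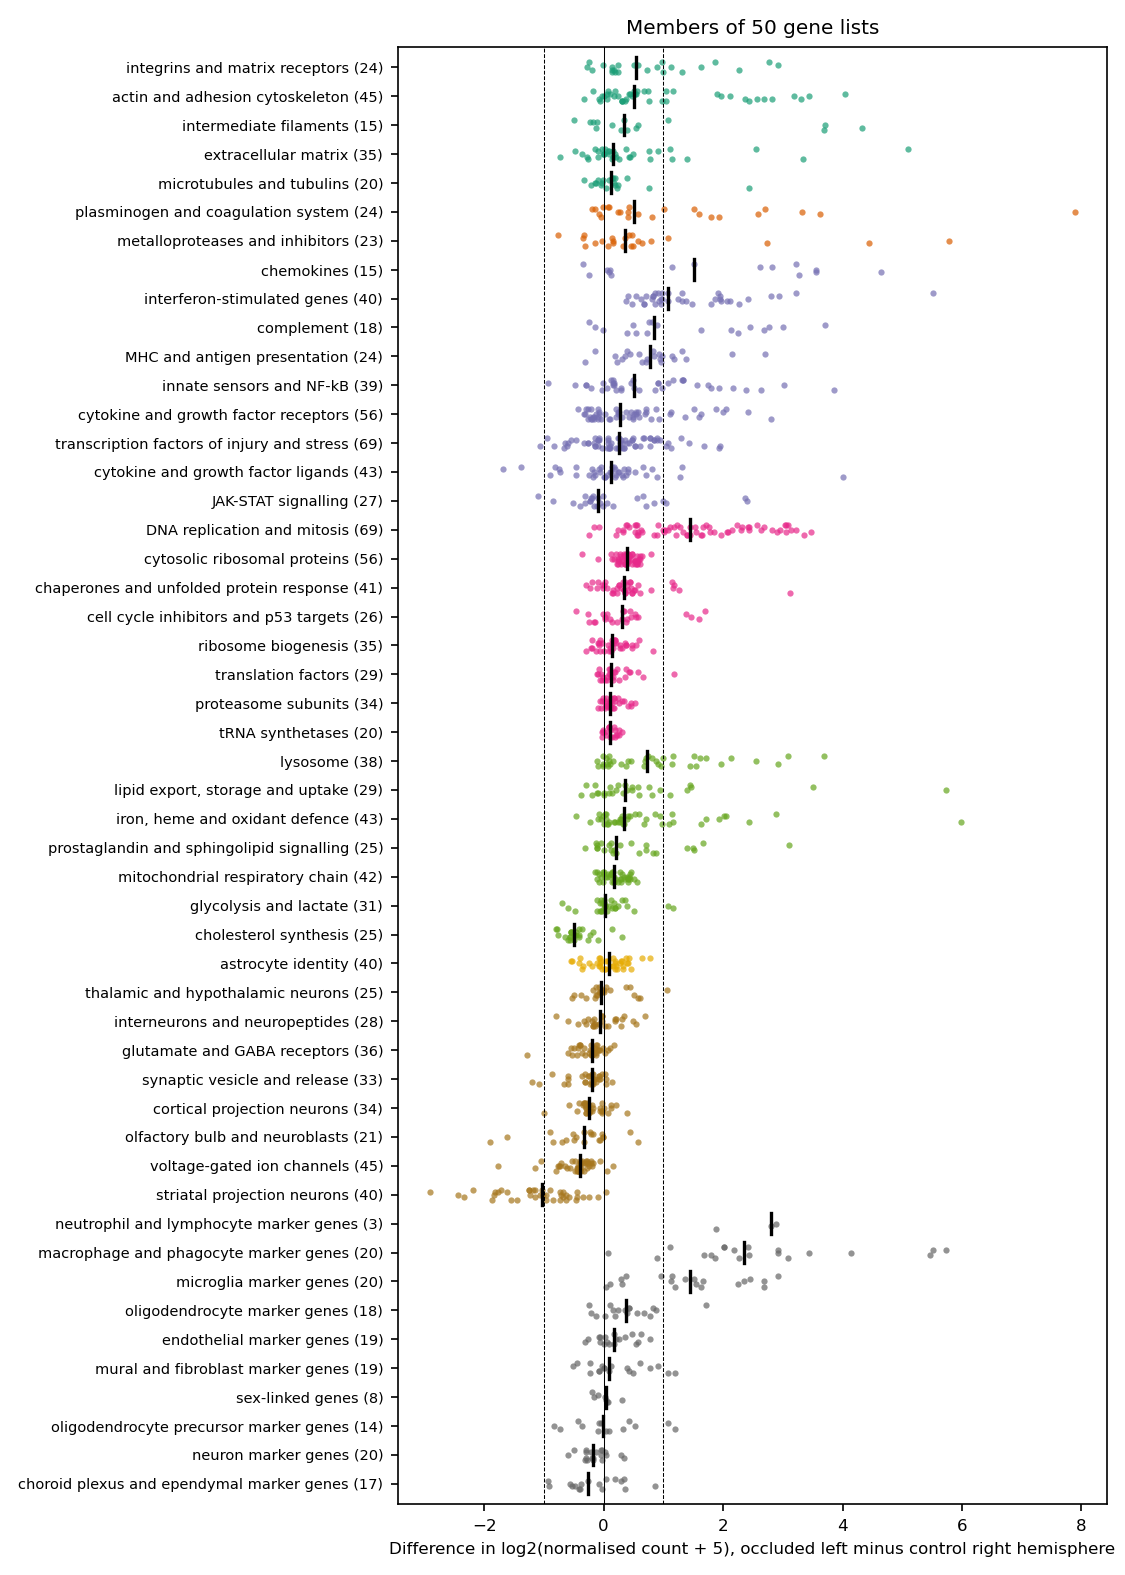
Difference in log2(normalised count + 5), occluded left minus control right hemisphere, for members past the filter of the gene lists (points; number of members in brackets) with the list median (black bar); dashed lines mark 2-fold and colours mark blocks of related lists. Phagocyte markers (median 2.34), mitosis genes (1.45) and chemokines (1.51) lie to the right, striatal neuron genes (-1.03) to the left, and astrocyte identity genes (0.09) within 2-fold.

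Many cell division genes were higher in the occluded hemisphere. Of 69 DNA replication and mitosis genes 46 were 2-fold or more higher and none lower, 23 lay within 2-fold, and the median was 1.45. In the occluded library 4.12% of all genes were that much higher, and 11.5% of those in the lowest class of mean count. The median over the same genes was 0.32 for the contralateral against the control library, with 14 genes at least 2-fold higher. Over all genes, 771 (5.17%) were that much higher in the contralateral than in the control library, and 54 (0.362%) that much lower. Top2a, the topoisomerase that untangles replicated DNA, had 36.8, 137 and 461, a ratio of 12.5 (8.97 to 18.0). Cenpf, a kinetochore gene, had 14.5, 148 and 167, so that its contralateral value was close to the occluded one. Mki67 and Cdk1, a proliferation marker and the mitotic kinase, had 33.9, 58.6 and 395, and 22.3, 34.6 and 251. With a mean of at least 100 required, 14 members were 2-fold or more higher and the median was 0.57.

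The promoters of many mitotic genes carry CCAAT boxes, the letters bound by NF-Y. The stretches below are those of the 4 list members with the largest differences that hold CCAAT before the start, with the letters CCAAT or their reverse complement in capitals. They lie at chr11:99024213-99024277 for Top2a, chr7:135716486-135716550 for Mki67, chr10:69352926-69352990 for Cdk1 and chr1:189688123-189688187 for Cenpf, all on the minus strand.
Top2a: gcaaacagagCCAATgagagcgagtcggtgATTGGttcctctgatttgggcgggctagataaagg
Mki67: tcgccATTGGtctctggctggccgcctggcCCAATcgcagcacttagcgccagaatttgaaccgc
Cdk1: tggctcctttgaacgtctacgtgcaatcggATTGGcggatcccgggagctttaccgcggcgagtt
Cenpf: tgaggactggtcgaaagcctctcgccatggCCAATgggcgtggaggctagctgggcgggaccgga

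Of 58 mitosis genes with a promoter entry 39 (67.2%) held CCAAT, against 37.9% of all RefSeq promoters. The share was as high, 69.7%, in 33 promoters of chaperone genes, so it was not particular to the dividing-cell list. The E2F letters TTTNGCGC were in 9 of the 58 (15.5%) and in 1.38% of all promoters. Before the start only, they were in 8.62% of the 58, and for all promoters that part was not counted.

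Growth arrest and stress genes differed less. Of 26 cell cycle inhibitors and p53 targets 4 were 2-fold or more higher (1 with a mean of at least 100): Rbl1, a retinoblastoma relative, with 39.7, 41.7 and 140, the death receptor genes Tnfrsf10b with 41.6, 70.1 and 135 and Fas with 39.7, 38.2 and 118, and the kinase inhibitor gene Cdkn2c with 70.7, 154 and 193. Mdm2, which degrades p53, had 1553, 1751 and 1575. Of 41 chaperone genes 5 were 2-fold or more higher. Hspb1, a small heat shock protein gene (chromosome 5, 135887919 to 135889563), had 41.6, 59.4 and 400, a ratio of 9.60 (6.98 to 13.5). Its relatives Hspb6, Cryab and Hspb8 had 214, 230 and 519, 1056, 1292 and 2408, and 373, 558 and 835. The 4 largest differences of the list were thus all small heat shock proteins, and Dnajb1, a partner of Hsp70, had 1269, 1477 and 1267.

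Ribosomal protein genes lay slightly above the control in both libraries of the occluded animals. None of 56 cytosolic ribosomal protein genes differed 2-fold, yet 54 lay above 0, with a median of 0.39. Against the same control library, the median of the contralateral hemisphere was 0.26. Rpl21 had 1382, 1570 and 2398, a ratio of 1.74 (1.62 to 1.86), and Rpl10a had 3295, 4106 and 5114. In the 42 respiratory chain genes the median was 0.17 and none differed 2-fold. Eif4ebp1, which holds back cap-dependent translation, was the single one of 29 translation factor genes at least 2-fold higher, with 83.3, 106 and 194.

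Cholesterol synthesis genes were shifted the other way. None of 25 differed 2-fold, 23 lay below 0, and the median was -0.50, beside -0.44 for the contralateral library. Stard4, a cholesterol transport gene, had 672, 451 and 383. Idi1, an early enzyme of the pathway, had 3566, 2420 and 2267. For Stard4 and Idi1 the contralateral and occluded values were both below the control, and both differences share that control library. Glycolysis genes had a median of 0.02, with 2 of 31 at least 2-fold higher (4.12% of all genes). These 2 were the hexokinase gene Hk2 with 133, 172 and 301 and the lactate exporter gene Slc16a3 with 92.0, 65.7 and 200.

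Astrocyte identity genes stayed within 2-fold, with a median of 0.09. Sox9, a transcription factor of astrocytes, had 1522, 2446 and 2623, and Ppp1r3c, a glycogen regulator, had 3863, 4754 and 6025. The lowest differences of that list were those of Chrdl1, encoding a BMP antagonist, with 734, 460 and 503, and of the glutamate transporter gene Slc1a3, with 51005, 47038 and 35442. For Slc1a3 the contralateral value lay nearer to the control, and for Chrdl1 nearer to the occluded value. The gap junction gene Gja1 had 26303, 25066 and 25650.

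Genes of striatal projection neurons formed the largest block on the lower side. Of 40 members 21 were at least 2-fold lower and none higher, 39 lay below 0, and the median was -1.03. The list includes Cd4, the lowest gene of the comparison. Like the other lists it was chosen with earlier results of these data known, so its count is not independent of them. The summed level was 127308, 112340 and 62989. Pde10a, the main phosphodiesterase of these neurons, had 6378, 5404 and 1806, 3.53-fold lower (3.34 to 3.74). Drd1, the dopamine receptor of the direct pathway (chromosome 13, 54051183 to 54055658), had 1444, 1090 and 487, 2.97-fold lower (2.66 to 3.31). Drd2, that of the indirect pathway, had 951, 761 and 185, 5.15-fold lower (4.35 to 6.13). In each of these genes the contralateral value was nearer to the control than to the occluded value.

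Other neuron lists differed less. Of 45 voltage-gated channel genes 3 were at least 2-fold lower and 43 lay below 0, with a median of -0.40, beside -0.32 for the contralateral library. Scn4b, a sodium channel subunit abundant in striatum, had 9865, 7333 and 2894, and the potassium channel genes Kcnq3 and Kcna5 had 306, 242 and 135, and 370, 257 and 176. Of 33 synaptic vesicle genes 2 were at least 2-fold lower, the calcium sensor gene Syt2 with 720, 598 and 311 and the vesicle protein gene Sv2c with 275, 207 and 127. Of 36 glutamate and GABA receptor genes the NMDA receptor gene Grin2a alone was at least 2-fold lower, with 200, 126 and 78.8.

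None of 34 cortical projection neuron genes differed 2-fold, and the median was -0.24, beside -0.19 for the contralateral library. Syt6, a marker of deep layers, came nearest with 1056, 783 and 528. None of the 20 general neuron markers differed 2-fold: Syt1, the fast release sensor, had 34548, 26043 and 22789, and the GABA synthesis gene Gad1 had 12304, 12193 and 12470. The neuron marker median was -0.18, beside -0.15 for the contralateral library.

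A few genes of the olfactory bulb were lower in both libraries of the occluded animals. Of 21 members 2 were at least 2-fold lower in the occluded library (1.25% of all genes) and 3 in the contralateral one (0.362% of all genes). The other 19 lay within 2-fold in the occluded library. Doc2g (chromosome 19, 4003385 to 4007005) had 207, 43.5 and 51.8, and Eomes, a factor of bulb projection neurons, had 96.9, 11.5 and 28.2. The control library was the high one for both genes, whereas Pax6, another factor of bulb neurons, had 545, 583 and 541. In the thalamic and hypothalamic list 1 of 25 genes was at least 2-fold higher, near the 4.12% of all genes. It was the oxytocin gene Oxt, with 174, 211 and 369.

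Several of the 25 lowest genes were outside the striatal list. Frmd7, a cytoskeletal gene (chromosome X, 50892643 to 50943619), had 78.4, 30.2 and 11.8, 6.67-fold lower (3.45 to 14.4). Ksr2, a scaffold of the MAP kinase cascade, had 178, 74.5 and 41.2, 4.33-fold lower (3.00 to 6.40). Mme, encoding the peptidase neprilysin, had 564, 350 and 131, 4.32-fold lower (3.52 to 5.34). In these genes the contralateral value lay between the others. Chrm2, a muscarinic receptor gene, had 69.7, 51.5 and 18.8, with the right hemispheres nearer to each other.

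Markers of the remaining cell types were mostly within 2-fold. Of 18 oligodendrocyte markers Trf alone was at least 2-fold higher (4.12% of all genes). The list median was 0.37 and the sum was 145319, 125824 and 198984. The myelin adhesion gene Mag had 6772, 7386 and 12011, and the myelin gene Mbp had 34022, 29310 and 31017. Of 14 precursor markers 2 were 2-fold or more higher, the proteoglycan gene Cspg4 with 554, 454 and 1276 and the lineage factor gene Olig2 with 813, 1417 and 1714. Cacng4 and Tnr, also precursor markers, had 564, 463 and 313, and 333, 266 and 199, so that the list had members on both sides.

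None of 19 endothelial markers differed 2-fold, and the median was 0.17, with the blood clotting gene Vwf at 176, 136 and 305 and the tight junction gene Cldn5 at 114, 85.2 and 169. Of 19 mural and fibroblast markers 2 were 2-fold or more higher, Cspg4 and Des. None of 17 choroid plexus and ependymal markers differed 2-fold, with a median of -0.26, and Ttr, encoding transthyretin, had 10949, 14272 and 8192.

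Differences also varied with the genomic span of a gene, its length from start to end in RefSeq (GRCm38.p6), which was known for 96% of the genes used. The median span was 15.5 kb for the higher, 33.3 kb for the lower and 24.1 kb for all genes. The median difference was 0.17 for genes under 5 kb and -0.22 for those over 250 kb, with the bins between them in order. Of genes under 5 kb 5.64% were 2-fold or more higher and 1.03% lower, and of those over 250 kb 0.76% and 3.8%. The contralateral library, set against the same control, had medians of 0.18 and -0.16 in these bins. The order was the same among the genes of lower level, among those of higher level and without the list genes, splits that were chosen after seeing the data. The part of gene span in the list medians was not tested.

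**Figure D5:**
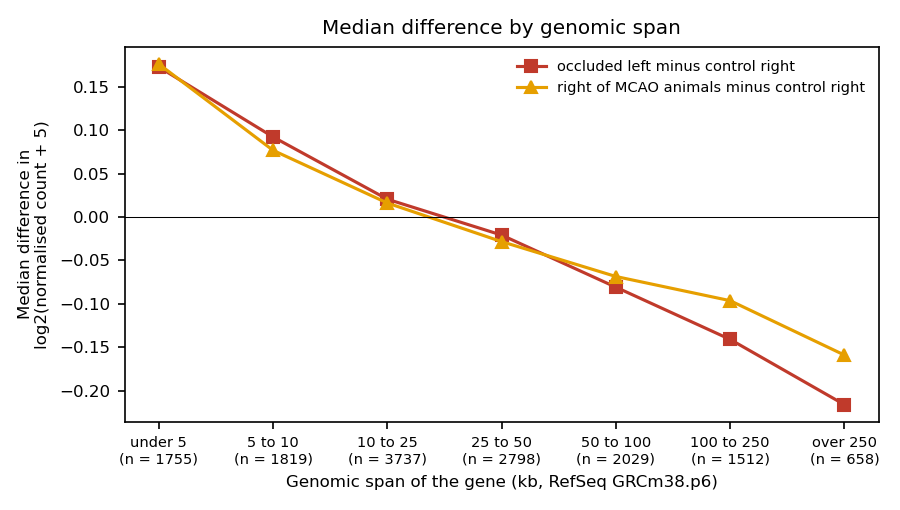
Median difference in log2(normalised count + 5) from the control right hemisphere by genomic span of the gene (kb), for the occluded left hemisphere (red squares) and the right hemisphere of the MCAO animals (orange triangles); n is the number of genes per bin. Both lines descend, from 0.17 to -0.22 and from 0.18 to -0.16, and they share the control library.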

How the data were processed

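The authors deposited 1 table of 16610 gene symbols and 3 libraries. Its values are a signal as deposited by the authors, in which whole reads were scaled by a factor for each library, as read from the values. HISAT2 2.0.11, CASAVA 1.8, R 3.3.1, Partek 6.6, DESeq2 (no version) and the build mm10 are named in the submitters' processing notes, with no role or order. Strand handling is not given in the sources used here, so overlapping and antisense genes may share reads. No column was left unused.

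Values below 1 were listed as 1 (665, 47 and 583 genes in the control, contralateral and occluded library). What 1 read was worth was found from the steps between low values: 0.969, 0.887 and 1.18 normalised counts, with 99.9% of values above 1 whole within 0.1 read. Those reads gave the depths and the 95% Clopper-Pearson intervals. Intervals cover counting error only, because reads that carry no molecular identifiers can be copies. In depths and read numbers a value listed at 1 was taken as 0 reads. In intervals it was taken as 0 reads in the occluded and 1 read in the other libraries, and ratios to it use a floor of 3 reads in that library. No count test was run, since each group had 1 library.

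Differences were log2(value + 5) with Python 3.11.15, pandas 2.3.3, numpy 2.4.6 and scipy 1.17.1, and figures were drawn with matplotlib 3.10.9. Genes needed a mean of at least 20, and 1704 fell below it. A gene counted as higher or lower at 2-fold or more. Simulated reads were used to test the size rule. The choice of this comparison and the 50 gene lists were made with earlier results of these data known, while the libraries in it follow the labels. Lists overlap in part, and 238 of the higher and 32 of the lower genes are in a list.

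Named genes were the 25 highest and 25 lowest differences, skipping predicted genes and near-identical families, the 12 largest gains and losses in counts, fixed marker genes, and per list the 4 largest differences and the 3 nearest to 0. Promoters and spans came from RefSeq tables (GRCm38.p6), which held 15912 of the symbols. The first promoter window per symbol was searched on both strands for 8 motifs, of which ISRE, E2F, PU.1 and NF-Y are reported. Some members of the lists and of the named genes are not reported here. Alternatives were other pseudocounts, filters, scalings and sizes.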

Additional observations from a re-analysis of the deposited data

How the results depend on the processing

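No paired analysis was possible because each group has 1 library, and no library could be left out. The 614 higher genes became 283 with a mean of at least 100, 1365 at 1.5-fold, 202 at 4-fold and 392 with the whole counting interval past 2-fold. The 187 lower genes became 95, 772, 8 and 55 under these settings, 105 with a pseudocount of 20 and 295 with no filter. The share of higher genes among all called was 76.7%, and it was 63.9% at 1.5-fold, 96.2% at 4-fold and 87.7% by the counting interval. With a pseudocount of 1, a filter over the 2 compared libraries, scaling to the column total or centring on the median, both counts kept within 1.5 times. The median difference was -0.0123 with a mean of at least 100 and 0.006045 after scaling to the total. Of 700 list counts recomputed, 22 moved by over 1.5 times, mostly under the mean of at least 100, and of 350 list medians 19 moved by 0.1 or more. With that mean, phagocyte markers 2-fold or more higher numbered 11, transcription factors 5, antigen presentation genes 2, p53 targets 1 and ligands 1, and the complement median was 1.63. Lists hold fewer members under that mean, so a lower count is not by itself a lower share. With no filter, 9 ligands were 2-fold or more higher. Named genes were recomputed only with pseudocounts of 1 and 20 and with scaling to the column total. These settings cannot reverse the sign of a difference of 2-fold or more, so they are no check of direction. Depth limits the low genes, and animal-to-animal spread is unknown.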
